A study of Mus musculus with 42 samples.

Results

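The miRNAs of small extracellular vesicles (EV) shed by BDNF-treated cortical neurons were compared with those of the lysates of such neurons, in 6 EV and 6 lysate libraries, 12 of the 42 samples of the study. The libraries were chosen by their labels alone, and all 1915 rows of the small RNA count table were used (638 of them without a count in any of the 12), of which 521 could be tested. The neurons came from NMRI mouse embryos of day 16, were grown for 6 to 7 days and were exposed for 20 min to BDNF at 50 ng/ml, a neurotrophic growth factor of the brain, before washing, and vesicles were collected 16 h later. Every group shares the strain, the age and the culture medium, and the plating medium held horse serum before it was replaced. Libraries 1, 2 and 3 of each group carry the batch label x and libraries 7, 8 and 9 the label z; what the batch letter stands for is not given. The other 12 small RNA libraries, EV and lysates of vehicle-treated (control) cultures of the same batches, served only for the shared estimate of spread and for the comparison with control donors. Whether the replicates are separate cultures is not labelled. A p-value here therefore reflects the spread among these libraries alone, which may be technical. In bulk samples a change in the number of vesicles or cells of a kind and a change in RNA per vesicle or cell cannot be told apart.

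A miRNA is cut from a hairpin precursor by Drosha and Dicer, and 1 arm of the resulting duplex (5p or 3p) is usually kept in an Argonaute protein while the other is lost. Bases 2 to 8, the seed, set which messages it pairs with, so miRNAs with a common seed share targets. Cells release part of their miRNAs in vesicles, and proteins that bind short motifs in the miRNA are known to change what is loaded in several cell types. BDNF acts through its receptor TrkB, and in neurons it raises the transcription of the miR-132 and miR-212 precursor through CREB.

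The sequences on which the results turn are given 5′ to 3′, with the seed in capitals. They are RefSeq mature sequences placed on GRCm38.p6, where 447 of the 521 tested miRNAs had an entry. The first set shows a seed family whose members went in opposite directions between EV and lysate.
miR-25-3p: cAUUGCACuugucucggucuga
miR-92a-3p: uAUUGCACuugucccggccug
miR-92b-3p: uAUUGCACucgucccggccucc
miR-363-3p: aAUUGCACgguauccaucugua
miR-32-5p: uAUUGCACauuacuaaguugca

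The next set shows the miR-34 and miR-449 seed, whose member miR-449a-5p was the lowest in EV of the miRNAs at a mean of 20 CPM or more, followed by 3 let-7 members, of which let-7i-5p moved against the others. miR-34c-5p is of the same family.
miR-34a-5p: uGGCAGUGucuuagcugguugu
miR-449a-5p: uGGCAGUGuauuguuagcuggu
miR-449c-5p: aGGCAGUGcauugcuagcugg
let-7f-5p: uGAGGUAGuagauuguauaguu
let-7g-5p: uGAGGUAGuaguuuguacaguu
let-7i-5p: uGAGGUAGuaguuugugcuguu

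Both arms are shown for 3 precursors whose arms were called in opposite directions.
miR-671-5p: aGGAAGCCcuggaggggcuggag
miR-671-3p: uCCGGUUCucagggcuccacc
miR-708-5p: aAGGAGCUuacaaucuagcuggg
miR-708-3p: cAACUAGAcugugagcuucuag
miR-431-5p: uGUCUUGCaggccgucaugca
miR-431-3p: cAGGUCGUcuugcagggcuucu

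The last set holds 2 pairs of near copies, miR-103-3p with miR-107-3p and miR-10a-5p with miR-10b-5p, for which the counting could have split reads. It also holds miR-132-3p and miR-212-3p, which share a seed and come from 1 precursor transcript, and miRNAs of neurons whose difference was unlike in the 2 batches.
miR-103-3p: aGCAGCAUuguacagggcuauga
miR-107-3p: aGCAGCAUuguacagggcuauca
miR-10a-5p: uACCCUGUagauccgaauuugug
miR-10b-5p: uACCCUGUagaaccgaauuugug
miR-132-3p: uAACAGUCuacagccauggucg
miR-212-3p: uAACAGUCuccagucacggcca
miR-9-5p: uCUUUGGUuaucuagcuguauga
miR-137-3p: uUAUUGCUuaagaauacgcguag
miR-326-3p: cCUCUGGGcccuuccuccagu

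The EV libraries were shallower than the lysates and most so in batch z. BDNF EV libraries held 1761389 to 2712551 miRNA counts in batch x and 377730 to 948706 in batch z, against 5349017 to 6396972 and 7938452 to 10275409 in lysates. Log2 CPM (counts scaled to 1 common library size with TMM factors) correlated at 0.981 to 0.997 between lysates, at 0.91 to 0.99 between EV libraries and at 0.874 to 0.953 between an EV and a lysate library. The 5 neuron markers miR-124-3p, miR-9-5p, miR-128-3p, miR-137-3p and miR-138-5p together stood at 209130 to 323180 CPM in EV and 487280 to 589450 CPM in lysates. Nearly all of these sums was miR-9-5p and miR-128-3p, and all 5 markers had counts in every library of both fractions. The single markers did not share 1 direction, as given below.

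Vesicles spread their counts more evenly than lysates. The 10 most abundant miRNAs held 72.6% ± 1.40 (SD, n = 6) of the counts of BDNF EV and 80.1% ± 0.587 of those of BDNF lysates, a difference of -7.46 percentage points (exact permutation test within batches, two-sided, p = 0.005, the smallest that 400 relabellings allow). With miR-9-5p left out, the 10 most abundant held 0.64 percentage points more in EV (p = 0.375, same exact test). The most abundant miRNA alone held 13.2 to 21.6% of an EV library and 38.3 to 42.3% of a lysate. It was miR-9-5p in all 6 lysates and in the 3 EV libraries of batch x, and miR-128-3p in the 3 EV libraries of batch z. After each library was thinned to 377116 counts, 540 ± 15.7 miRNAs were detected in EV and 523 ± 16.1 in lysates (SD, n = 6), a difference of 16.8 that did not pass (exact permutation test within batches, two-sided, p = 0.055).

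Over the whole table, most of the tested miRNAs differed between BDNF EV and BDNF lysates. Of 521 miRNAs tested, 299 (57.4%) passed edgeR's quasi-likelihood test at an adjusted p under 0.05, of which 156 (29.9%) were higher and 143 (27.4%) lower in EV. By more than 2-fold, 71 were higher and 74 lower, and by more than 4-fold, 23 and 18. In 168 miRNAs (32.2%) the 6 EV libraries did not overlap the 6 lysates, 87 of them with EV above and 81 with EV below. The median log2 fold change of all 521 was 0.02, and that of the called ones was 0.99 in size. The split of calls depended on scaling: library totals with no scaling factors gave 188 higher and 111 lower, and no filter on low counts gave 113 and 217. Of the 299 calls, 244 held when any 1 of the 12 libraries was left out.

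Of the miRNAs richest in EV, miR-122-5p, the dominant miRNA of hepatocytes, led. Its level was 1903 to 2534 CPM in the EV libraries of batch x and 8837 to 14247 CPM in those of batch z, against 35.3 to 44.5 CPM in all lysates, a fold of 138 (95% interval 72.2 to 262, edgeR adjusted p = 6.78e-12). The EV and lysate groups lay far apart in each batch, with log2 fold changes of 5.76 in x and 8.09 in z. The difference between batches was 2.36 ± 0.21 (SE, adjusted p = 1.12e-07 by edgeR), so the joint fold and its interval describe neither batch. miR-3535 had a median of 472 CPM in EV (241 to 579) and 86.9 CPM in lysates (34.3 to 175), a fold of 5.67 (95% interval 3.22 to 9.99, adjusted p = 8.70e-06 by edgeR). miR-3068-3p stood at 40.2, 118 and 177 CPM (lowest, median, highest) in EV and 10.7, 19.6 and 29.2 CPM in lysates, a log2 fold change of 2.46 ± 0.20 (SE, adjusted p = 4.22e-10 by edgeR). For both, every EV library was above every lysate. The lysates of batch z lay below those of batch x for both miRNAs, and so did the EV libraries for miR-3068-3p but not for miR-3535, whose highest library was EV 7. miR-485-5p, a miRNA of the Dlk1-Dio3 imprinted cluster, stood at 169, 229 and 316 CPM in EV and at a median of 54.3 and at most 57.3 CPM in lysates, a log2 fold change of 2.16 ± 0.14 (SE, adjusted p = 6.78e-12 by edgeR). miR-192-5p, of liver and gut, had a median of 1749 CPM in EV (839 to 3756) and 403 CPM in lysates (367 to 496). miR-143-3p, of smooth muscle and fibroblasts, had a median of 1007 CPM in EV (419 to 2217) and 210 CPM in lysates (189 to 219). Both passed with no overlap of the groups. The log2 fold change of miR-192-5p was 2.06, with 0.96 in x and 2.93 in z. That of miR-143-3p was 2.16, with 1.01 in x and 3.15 in z. EV of batch z stood above EV of batch x for both, with no library near the pooled medians. The other 6 of the 12 highest were miR-5121, miR-671-5p, miR-1a-3p, miR-103-3p, miR-1224-5p and miR-185-5p, with log2 fold changes from 1.45 to 2.39. Among these 6, miR-5121 and miR-103-3p overlapped between the groups and the other 4 did not.

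miR-103-3p, which acts in insulin signalling in mouse liver and fat, had the highest median in EV of these 12. Its level was 10562 to 11161 CPM in EV of batch x and 2787 to 6245 CPM in EV of batch z, against 2196 to 2863 CPM in lysates. The log2 fold change was 1.60 ± 0.24 (SE, adjusted p = 3.56e-06 by edgeR), and EV library 8 lay inside the range of the lysates. Its near copy miR-107-3p, which differs only in the base before the last, had a log2 fold change of 1.16 in batch x and -0.18 in batch z. Reads that end before that base cannot be assigned to 1 of the pair. The call of miR-107-3p was lost without any of 9 of the 12 libraries (edgeR adjusted p = 0.0157 to 0.211 over the 12).

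**Figure D1:**
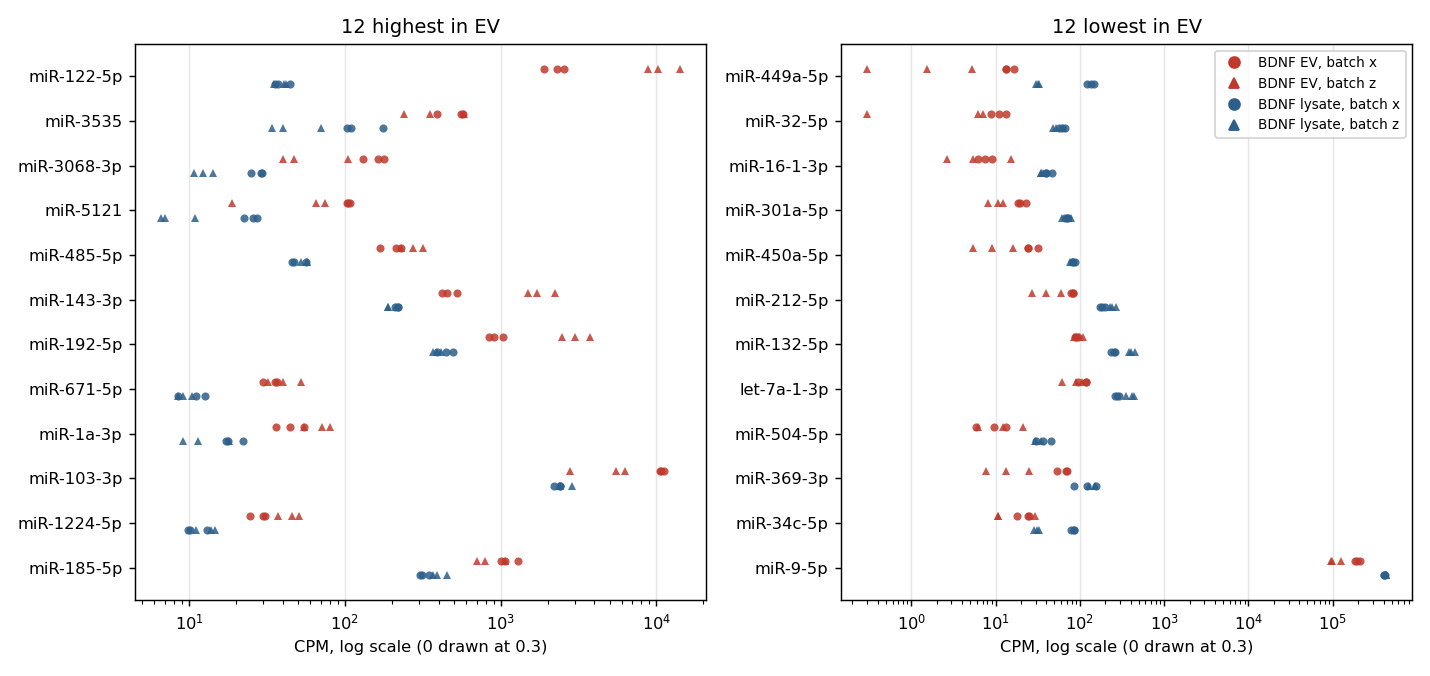
Levels of the 12 highest and 12 lowest called miRNAs at a mean of at least 20 CPM with the same sign in both batches, in CPM on a log axis, with 0 drawn at 0.3. Each point is 1 library, circles for batch x and triangles for batch z. EV and lysate points do not overlap for 21 of the 24 miRNAs, the exceptions being miR-5121, miR-103-3p and miR-34c-5p. The choice by size of change favours such separation, which held for 168 (32.2%) of all 521 miRNAs tested.

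At the other end, among calls at a mean of 20 CPM or more, the lowest in EV was miR-449a-5p, of a family known for multiciliated cells and for cell cycle arrest. It stood at 0, 9.25 and 16.4 CPM (lowest, median, highest) in EV and 30.4, 76.8 and 148 CPM in lysates, a log2 fold change of -3.14 ± 0.25 (SE, adjusted p = 2.94e-10 by edgeR). All EV libraries were below all lysates, and the value was the same in both batches within its error (-3.35 in x and -3.31 in z). miR-32-5p stood at 0, 7.98 and 13.2 CPM in EV and 48.5, 59.3 and 66.6 CPM in lysates, a log2 fold change of -2.71 ± 0.27 (SE, adjusted p = 7.56e-09 by edgeR). miR-16-1-3p, miR-301a-5p and miR-450a-5p followed, with log2 fold changes of -2.39, -2.12 and -2.03 and no overlap between the groups. miR-16-1-3p is the rarely kept arm of the miR-16-1 hairpin. let-7a-1-3p is likewise the minor arm of a let-7 hairpin, and its row stands also for let-7c-2-3p, which had identical counts. It had a median of 102 CPM in EV and 323 CPM in lysates (log2 fold change -1.73 ± 0.22, SE, edgeR adjusted p = 3.37e-07). miR-504-5p (-1.73), miR-369-3p (-1.70) and miR-34c-5p (-1.55) completed the list together with miR-132-5p, miR-212-5p and miR-9-5p.

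Neuronal miRNAs were more often lower than higher in EV in the joint fit, but not in batch x alone. Of 25 neuron-enriched miRNAs, all tested, 6 were higher, 12 lower and 7 did not pass, with a median log2 fold change of -0.36 beside 0.02 for all miRNAs tested. Over all miRNAs tested, 29.9% were higher and 27.4% lower. In batch x alone 11 of the 25 were higher and 11 lower, with a median of 0.06. In batch z alone 5 were higher and 16 lower, with a median of -1.16. miR-9-5p, the most abundant, which acts in neural progenitors and young neurons, stood at 182240 to 208640 CPM in EV of batch x and 95356 to 123660 CPM in EV of batch z. In lysates it stood at 403960 to 433980 CPM, far above every EV library, a log2 fold change of -1.55 ± 0.15 (SE, adjusted p = 6.71e-09 by edgeR). Its other arm miR-9-3p had a log2 fold change of -0.67 ± 0.28 (SE, adjusted p = 0.0444 by edgeR), with 0.14 in x against -1.65 in z. The call was lost without any 1 of the 6 libraries of batch z (adjusted p up to 0.135). miR-128-3p and miR-218-5p, also of neurons, did not pass (0.23 ± 0.16 and 0.02 ± 0.12). Higher in EV were miR-7b-5p (1.26), miR-129-1-3p (1.25), miR-129-2-3p (1.16), miR-383-5p (0.81), miR-124-3p (0.77), the miRNA of differentiated neurons, and miR-7a-5p (0.72). miR-153-3p (-1.13), miR-488-3p (-1.35) and miR-504-5p (-1.73) were among the lower ones.

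All 4 products of the BDNF-responsive miR-132 and miR-212 precursor were lower in EV than in the lysates of the treated neurons. miR-132-3p, which promotes the growth of dendrites in neurons, stood at 431 to 556 CPM in all EV, at 682 to 727 CPM in lysates of batch x and at 1173 to 1383 CPM in lysates of batch z. Every EV library was below every lysate, and the log2 fold change was -0.99 ± 0.18 (SE, adjusted p = 3.34e-05 by edgeR; -0.46 in x and -1.54 in z). miR-132-5p stood at 85.7 to 109 CPM in EV and 233 to 451 CPM in lysates, a log2 fold change of -1.76 ± 0.14 (SE, adjusted p = 2.94e-10 by edgeR). miR-212-5p had a median of 68.8 CPM in EV (26.8 to 82.9) and 212 CPM in lysates (174 to 265), a log2 fold change of -1.78 ± 0.19 (SE, adjusted p = 1.86e-08 by edgeR). miR-212-3p, which has the seed of miR-132-3p, had a median of 26.6 CPM in EV (2.68 to 31.1) and 53.6 CPM in lysates (49.2 to 62.2), a log2 fold change of -1.23 ± 0.27 (SE, adjusted p = 0.000428 by edgeR). None of the 4 overlapped between the groups. Of the 12 miRNAs listed as regulated by activity or BDNF, 3 were higher (miR-134-5p, miR-124-3p and miR-485-5p), 4 lower, these being the 4 products above, and 5 did not pass (median -0.29). The share called was thus close to the 57.4% of all miRNAs tested.

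Members of 1 seed family did not move as a unit. Of the 12 seed families with at least 3 tested members of known sequence, 5 held calls in both directions. In the miR-25, miR-32, miR-92 and miR-363 family, miR-25-3p stood at 1631 to 2516 CPM in EV and 980 to 1232 CPM in lysates (log2 fold change 0.92 ± 0.13, SE, edgeR adjusted p = 1.32e-06). miR-92a-3p, of the miR-17-92 cluster, stood at 2112 to 2672 CPM in EV and 1357 to 1606 CPM in lysates (0.69 ± 0.11, SE, edgeR adjusted p = 6.84e-06). miR-92b-3p, with 205 to 554 CPM in EV and 662 to 855 CPM in lysates, was lower (-1.19 ± 0.26, SE, edgeR adjusted p = 0.000428; -1.95 in x and -0.50 in z). None of these 3 overlapped, and miR-32-5p was lower still, as given above, while miR-363-3p did not pass (-0.33 ± 0.25). The GC shares of these 5 sequences were 50.0% in miR-25-3p, 57.1% in miR-92a-3p, 63.6% in miR-92b-3p, 40.9% in miR-363-3p and 31.8% in miR-32-5p, so the lower members were the richest and the poorest in GC.

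The let-7 family, which holds back growth and stem cell genes, was mostly higher in EV. Of 10 members, all tested, 8 were higher, 1 lower and 1 did not pass, with a median log2 fold change of 0.55, which stayed above that of all miRNAs under every scaling tried; with no filter on low counts, 3 were called higher and 2 lower. let-7f-5p stood at 63652 to 76991 CPM in EV and 35554 to 42252 CPM in lysates, a log2 fold change of 0.91 ± 0.10 (SE, adjusted p = 4.75e-08 by edgeR). let-7a-5p (0.81), let-7e-5p (0.72), let-7d-5p (0.65) and let-7g-5p (0.39) likewise had all EV libraries above all lysates. let-7i-5p went the other way, with 21840 to 31728 CPM in EV and 31128 to 36195 CPM in lysates (-0.39 ± 0.11, SE, edgeR adjusted p = 0.0035), and miR-98-5p did not pass (-0.17 ± 0.12). let-7 members differ in few bases, so reads with errors can be counted to the wrong member. Beside the family counts given here, 29.9% of all miRNAs tested were higher and 27.4% lower. Of the miR-34 and miR-449 family, 5 of 6 members were tested, 0 were higher and 4 lower (median -1.55), while miR-34a-5p did not pass (-0.28 ± 0.25). In the miR-15 and miR-16 family 2 of 6 were lower, miR-322-5p (-1.43) and miR-497a-5p (-1.37), a share near that of all miRNAs tested. The other 4 did not pass. Among 10 members of miR-29 and miR-30, 9 were tested, of which 2 were higher and 4 lower (median -0.13, or 0.04 with library totals). Of the 12 miRNAs of the miR-17-92 clusters 2 were higher and 1 lower (median 0.19, or -0.14 with no filter on low counts; 0.41 in batch x and -1.08 in z). The 6 tested members of the miR-17, miR-20, miR-93 and miR-106 seed all failed to pass (log2 fold changes -0.22 to 0.56). In 3 smaller families the calls were split as well, with miR-130b-3p (0.92) against miR-301a-3p (-1.10), miR-30a-5p (0.51) against miR-384-5p (-0.71), and miR-148a-3p (1.56) against miR-148b-3p (-0.54).

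**Figure D2:**
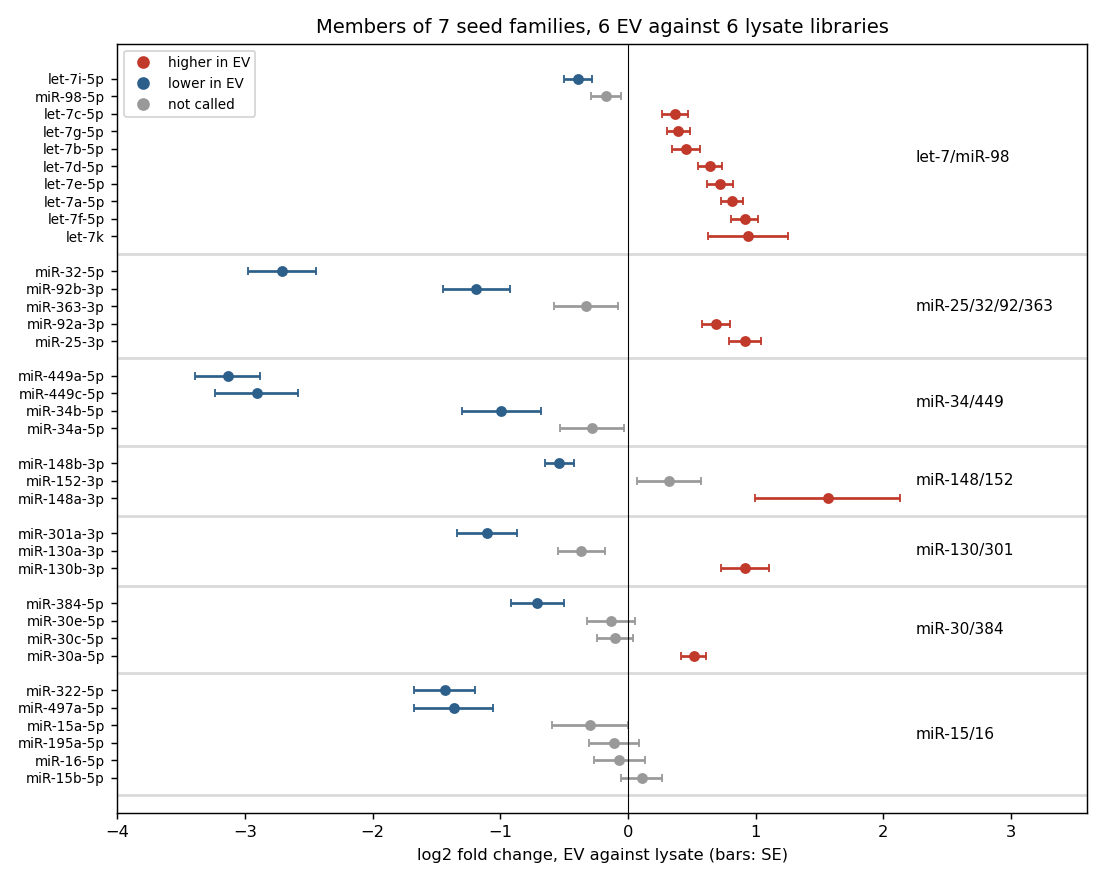
Log2 fold change of EV against lysate, with its SE, for the tested members of 7 seed families that had a RefSeq sequence, grouped by family and coloured by call; miR-34c-5p, miR-30b-5p and miR-30d-5p are not drawn. In the miR-25 family values run from -2.71 for miR-32-5p to 0.92 for miR-25-3p, while 8 of the 10 let-7 members lie above 0.

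The arms of a precursor often differed in their change between EV and lysate. Of 138 precursors with both arms tested, 64 (46.4%) passed edgeR's test for a difference between arms, and in 16 of them the arms were called in opposite directions. The arm that is rarer in control lysates was relatively higher in EV in 29 of the 64 and relatively lower in 35. The difference between arms had the same sign in both batches for 56 of the 59 called precursors tested in both. In control cultures, whose libraries are others, it had the same sign for 62 of the 64 and was called for 52. The same test in control cultures called 85 of all 138 precursors, so many of any 64 would be called there.

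The 6 called precursors with the largest arm differences, among those with both arms at 20 CPM or more, are given next. In each the share of the 5p arm did not overlap between the groups, which their choice by size favours. In miR-671 the 5p arm made up 42.9, 63.5 and 66.7% (lowest, median, highest) of both arms in EV and 16.1, 23.5 and 31.9% in lysates (edgeR adjusted p = 2.17e-10). In miR-708, of the Odz4 (Tenm4) gene, the 5p share was 21.5, 43.1 and 49.9% in EV and 10.9, 16.5 and 19.7% in lysates (edgeR adjusted p = 5.26e-07). Thus miR-708-5p was higher in EV (410 against 217 CPM at the median) while miR-708-3p was lower (574 against 1097 CPM). The remaining 4 lie in the Dlk1-Dio3 cluster on chromosome 12. In miR-485 the 5p share was 50.3 to 62.8% in EV and 25.4 to 35.1% in lysates, with both arms higher in EV. In miR-380 it was 40.9 to 52.7% in EV and 19.1 to 29.8% in lysates (edgeR adjusted p = 8.68e-07), with the 5p arm higher (0.85) and the 3p arm lower (-0.72). miR-431 went the opposite way, with 31.0 to 52.9% in EV and 59.4 to 69.3% in lysates (edgeR adjusted p = 9.25e-10). In miR-369 the 5p share was 72.4 to 95.8% in EV and 57.9 to 71.1% in lysates (edgeR adjusted p = 0.000465). The separate calls of miR-671-3p (-0.52, edgeR adjusted p = 0.0109 to 0.113 with 1 library left out) and miR-369-5p (-0.29, 0.00639 to 0.0793) were lost without any 1 of lysates 1, 2, 8 and 9 and of EV 9, lysate 8 and lysate 9, respectively. A larger arm difference, in a precursor with a rarer 5p arm, was that of miR-3068, where the 5p arm made up 2.21 to 6.25% in EV and 23.6 to 48.9% in lysates (edgeR adjusted p = 2.68e-15).

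**Figure D3:**
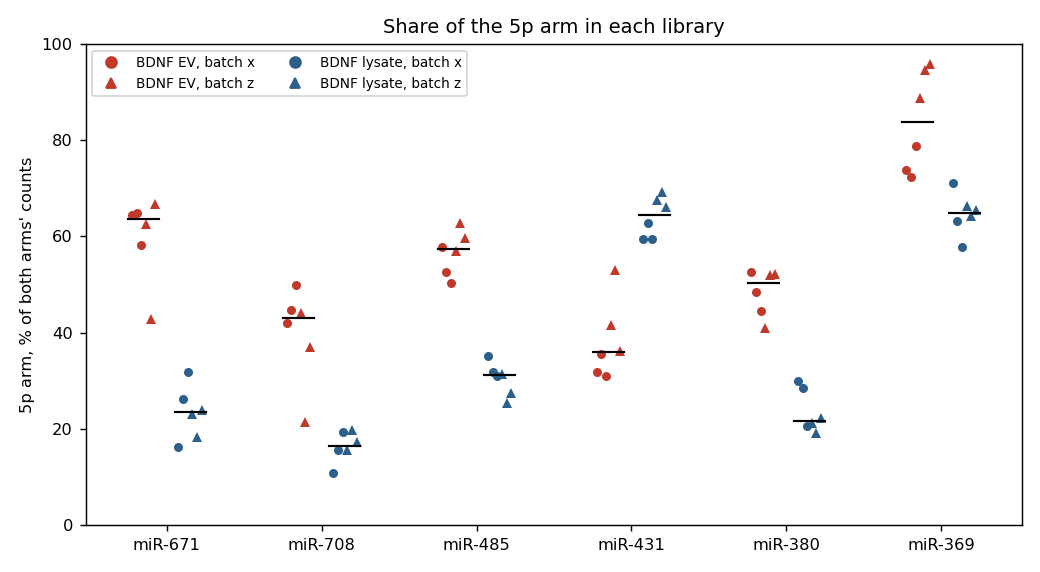
Share of the 5p arm in the summed counts of both arms for 6 precursors, in percent, with 1 point per library (circles batch x, triangles batch z) and a line at each group's median. The precursors were picked for the size of their arm difference, which favours separation of the groups. The EV and lysate points are apart for each precursor, for example 42.9 to 66.7% against 16.1 to 31.9% in miR-671. miR-431 alone has the lower share in EV.

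The Dlk1-Dio3 cluster as a whole, a large group of miRNAs of brain and embryo from 1 imprinted locus, showed no common direction. Of 57 members 55 were tested, of which 17 were higher, 17 lower and 21 did not pass (median 0.12; -0.03 without miR-9-5p and -0.20 with no filter on low counts). Calls in the cluster were thus split much as over all miRNAs tested, of which 29.9% were higher and 27.4% lower. Values in the cluster ran from 2.16 for miR-485-5p to -1.70 for miR-369-3p. miRNAs that are made without Drosha or without Dicer were all higher: of 6 listed, 5 were tested and 5 were higher (median 1.51; 5 of 5 in each batch alone and 4 of 5 with no filter on low counts). miR-320-3p, whose hairpin is capped and skips Drosha, stood at 500 to 613 CPM in EV and 195 to 250 CPM in lysates (log2 fold change 1.35 ± 0.11, SE, edgeR adjusted p = 4.22e-10). The intron-derived miR-877-5p (1.51) and miR-1224-5p (1.55) and the capped miR-484 (0.59) also had every EV library above every lysate. The remaining tested miRNA, miR-451a, was so low in lysates that it met the filter on low counts mainly through its EV levels. A lower call was hardly possible for it.

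Sequence composition went with the direction of the difference. Among the 447 miRNAs with a sequence, the median GC share was 50.0% in those higher in EV, 45.5% in those lower and 47.8% in those that did not pass. Across these 447 miRNAs Spearman's rho between GC share and log2 fold change was 0.246, a description over miRNAs of the same 12 libraries. It was 0.138 in batch x (422 miRNAs) and 0.332 in batch z (425 miRNAs). Under 35% GC, 16 of 33 miRNAs were lower and 5 higher in EV, with a median log2 fold change of -0.30 in batch x and -1.25 in batch z. From 55% GC upward, 19 of 122 were lower and 49 higher, with medians of 0.20 and 0.32. The last base was G in 30.8% of the higher and 11.4% of the lower miRNAs, beside 27.2% of those that did not pass and 23.9% of all 447. The lower ones thus stood apart more than the higher ones. EV libraries of batch z were also the shallowest, and the part of depth and of library making in this trend was not tested.

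Of the 5 motifs searched on the mature strand, GGAG, which the protein hnRNPA2B1 binds in human T cells, differed most between the calls. It was held by 51 (11.4%) of the 447 miRNAs, by 26 (19.5%) of the 133 higher ones, by 3 (2.4%) of the lower ones and by 22 (11.5%) of the 191 that did not pass. The median log2 fold change was 0.56 with the motif (0.38 in batch x, 0.59 in batch z) and -0.09 without it. miRNAs with GGAG were also richer in GC, with a median of 59.1% against 47.6%. Within 45 to 55% GC, 8 of 19 with the motif were higher and 0 lower, beside 47 and 51 of 160 without it. From 55% GC upward, 16 of 27 were higher and 2 lower, beside 33 and 17 of 95. In control cultures GGAG was held by 25 (17.5%) of 143 higher, 6 (4.6%) of 130 lower and 20 (11.5%) of 174 other miRNAs. CCCU was held by 12.0% of the higher, 1.6% of the lower and 8.7% of all miRNAs. GGCU, bound by SYNCRIP in mouse hepatocytes, was held by 17.3, 13.8 and 14.1%. AGAAC was held by 5.3, 1.6 and 3.1%, and CAGU by 11.3, 21.1 and 14.5%. A miRNA may hold more than 1 of these motifs, and a match is not a binding site.

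With GGAG in capitals, 3 miRNAs that hold it and were higher in EV are shown first, followed by the 3 that hold it and were lower; the first 3 were picked after their values were seen.
miR-1224-5p: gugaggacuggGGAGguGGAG
miR-877-5p: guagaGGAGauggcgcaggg
miR-139-3p: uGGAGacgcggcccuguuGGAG
miR-490-3p: caaccuGGAGgacuccaugcug
miR-125b-1-3p: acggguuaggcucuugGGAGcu
miR-3068-5p: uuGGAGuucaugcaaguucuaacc

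The log2 fold changes were 1.55 for miR-1224-5p, 1.51 for miR-877-5p and 0.97 for miR-139-3p, against -0.76 for miR-490-3p, -0.90 for miR-125b-1-3p and -1.20 for miR-3068-5p. In miR-3068 the arm that holds GGAG was the one lower in EV. The precursor of miR-1224-5p lies at chr16:20604452-20604472 for the mature part, on the plus strand, and miR-3068-5p at chr12:87437724-87437747 on the minus strand (GRCm38.p6).

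**Figure D4:**
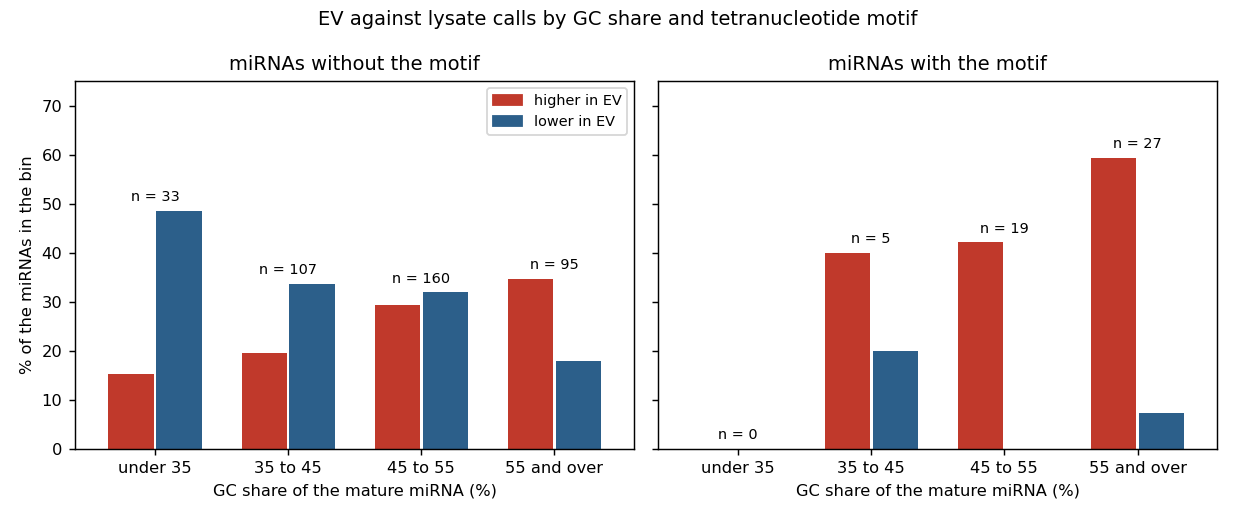
Percent of miRNAs called higher or lower in EV, in bins of the GC share of the mature miRNA, for miRNAs without and with the motif GGAG, with the number in each bin above the bars. Without the motif the higher calls run from 15.2% in the lowest bin to 34.7% in the highest, and with it they reach 59.3% in the highest.

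The 2 batches gave different pictures for many miRNAs. In the 12 BDNF libraries, 182 of 480 miRNAs (37.9%) passed edgeR's test for an EV-against-lysate difference that differs between batches, 84 higher in z and 98 lower in z. Each batch alone called 327 (x) and 274 (z) miRNAs. Of these, 175 were called in both with the same sign and 29 in both with opposite signs, and Spearman's rho between the batches' log2 fold changes was 0.612. Of the 66 named miRNAs with a test between batches, 26 passed it.

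The miRNAs named next were chosen after their values were seen, from the 29. miR-137-3p, which restrains neuronal maturation and synapse genes, stood at 303, 290 and 312 CPM in EV 1, 2 and 3 against 122, 140 and 162 CPM in lysates 1, 2 and 3. In batch z it stood at 122, 96.4 and 74.9 CPM in EV 7, 8 and 9 against 218, 250 and 235 CPM in the lysates. EV were thus above lysates in x (log2 fold change 1.01) and below them in z (-1.25), a difference between batches of -2.21 ± 0.20 (SE, adjusted p = 1.12e-07 by edgeR). miR-326-3p did the same, with 64.1 to 83.6 CPM in EV and 41.8 to 50.0 CPM in lysates of x, and 16.1 to 28.4 CPM against 68.4 to 78.3 CPM in z. Also positive in x and negative in z were miR-138-5p, a synaptic miRNA (0.38 and -1.16), miR-16-5p (0.46 and -0.78) and miR-30e-5p (0.35 and -0.80). In the other direction, miR-219a-2-3p, of oligodendrocytes, stood at 56.4 to 68.1 CPM in EV and 63.8 to 78.0 CPM in lysates of x, and at 110 to 161 CPM against 26.5 to 30.7 CPM in z (-0.30 and 2.17). miR-574-3p (-1.21 and 1.92) and miR-3473a (-1.44 and 2.18) shared that pattern. The other oligodendrocyte markers did not, though their levels rest on few EV counts. In batch z miR-219a-5p stood at 1.53 to 2.68 CPM in EV against 4.13 to 4.59 CPM in lysates. There miR-338-3p stood at 0 to 0.887 CPM in EV against 2.75 to 4.91 CPM in lysates. In all, 20 of the 29 were higher in EV only in batch x and 9 only in batch z. Because both batches enter the joint fit with 1 value, such miRNAs can fail to pass in it: miR-137-3p had a joint log2 fold change of 0.01.

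miR-148a-3p, of liver and B cells, and miR-690 were higher in EV in batch z alone. miR-148a-3p stood at 4271 to 5583 CPM in EV and 4496 to 6228 CPM in lysates of x, and at 13732, 41299 and 24475 CPM in EV 7, 8 and 9 against 2841 to 3599 CPM in z. Its joint log2 fold change of 1.56 ± 0.57 (SE, adjusted p = 0.0226 by edgeR) was lost without EV 8 or any 1 of lysates 7, 8 and 9 (up to 0.0656). miR-690 had log2 fold changes of -0.02 in x and 2.39 in z, and its joint value of 1.28 fell to 0.73 without EV 7 (edgeR adjusted p = 0.127).

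**Figure D5:**
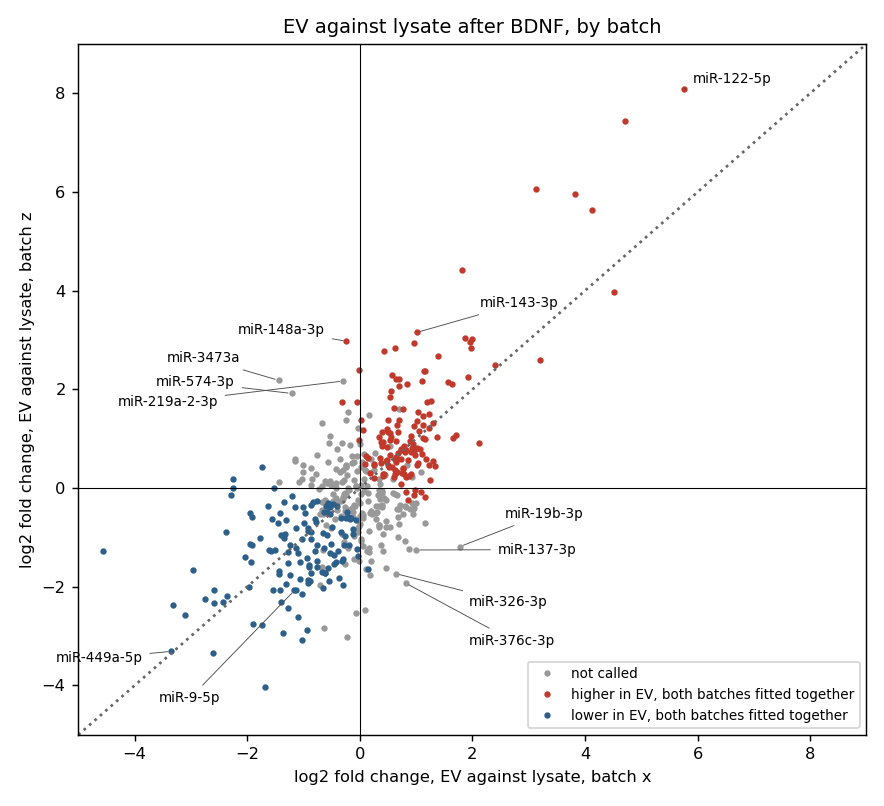
Log2 fold change of EV against lysate in batch x (horizontal) and batch z (vertical) for each miRNA tested in both, coloured by its call in the joint fit; the dotted line marks equal values. miR-122-5p is high in both batches, while miR-137-3p (1.01 and -1.25) and miR-574-3p (-1.21 and 1.92) lie in the quadrants of opposite sign.

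Many markers of cells other than neurons were higher in EV than in lysates. Over all miRNAs tested, for comparison with these lists, 29.9% were higher and 27.4% lower. Of 17 vascular, fibroblast and mesenchymal miRNAs 15 were tested, of which 11 were higher and 2 lower (median 0.94; 0.54 in x and 1.74 in z). The 2 lower ones were miR-21a-5p and miR-222-3p, and the call of the latter was lost without EV 9 or any 1 of lysates 1, 7, 8 and 9 (edgeR adjusted p up to 0.107). Of the 11 higher ones, 4 also lost their call with 1 library left out. These were miR-126a-5p (8 libraries of 12, all but EV 9 and lysates 3, 7 and 9), miR-199a-5p (7, namely EV 1, 3, 7 and 8 and lysates 7, 8 and 9), miR-214-5p (5, namely EV 1 and 8 and lysates 7, 8 and 9) and miR-126a-3p (EV 1 and 7), with adjusted p up to 0.319, 0.107, 0.0898 and 0.0688. miR-21a-5p alone stood at 3392 to 3853 CPM in lysates and 1297 to 1721 CPM in EV, and the summed level of the list was 2706 to 5301 CPM in EV and 4530 to 4881 CPM in lysates. Of 10 blood and immune miRNAs 6 were tested, of which 4 were higher and 0 lower, and of 8 liver and gut miRNAs 6 were tested, of which 4 were higher and 1, miR-375-3p, lower. Of 7 muscle miRNAs 4 were tested, with 2 higher and 1 lower, and of 6 oligodendrocyte and astrocyte miRNAs all were tested, with 1 higher and 1 lower. Among the higher ones, miR-150-5p, miR-451a, miR-142a-5p, miR-10a-5p, miR-10b-5p, miR-133a-3p and miR-214-3p were very low in lysates. They met the filter on low counts mainly through their EV levels. A lower call was thus hardly possible for them, and their direction carries little weight in these counts. The smooth muscle and fibroblast markers together stood at 660 to 2610 CPM in EV and 288 to 394 CPM in lysates, and the endothelial ones at 150 to 324 and 133 to 201 CPM. The 2 erythrocyte markers together stood at 5.80 to 34.8 CPM in EV and 0.188 to 0.463 CPM in lysates. Of the 4 leukocyte markers, miR-150-5p was at 0 in all lysates and miR-142a-3p at 0 in all EV libraries, although its other arm miR-142a-5p stood at 6.83 to 30.6 CPM in EV and 0.188 to 2.34 CPM in lysates. The part of other cells, or of the serum in the plating medium, in these values was not tested.

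For 4 of these miRNAs the lysates held too few counts for a fitted fold. miR-150-5p, of lymphocytes, had 24 counts over the 6 EV libraries (1 to 10 in each) and 0 over the lysates. With the lysates set to a floor of 3 counts in all, the ratio of shares was 39.8. That value takes the EV counts as exact and has no interval. Without EV 9, which held 10 of the 24, the ratio was 24.9. miR-451a, of erythrocytes, had 87 counts in EV and 14 in lysates, a ratio of shares of 30.9 (95% counting interval 17.5 to 58.8). miR-10a-5p, of a homeobox cluster, had 98 and 6 counts, a ratio of 81.2 (36.0 to 227), and miR-10b-5p had 63 and 10, a ratio of 31.3 (16.0 to 68.5). These intervals are exact binomial ones on summed counts and cover counting error only. All 4 had every EV library above every lysate, and groups did not overlap in 168 (32.2%) of all 521 miRNAs tested. With lysates this low, 1 count in a shallow EV library is enough for such separation. miR-150-5p in EV 8, for example, had 1 count, which is 2.68 CPM. The 4 also met the filter on low counts mainly through EV, so the separation adds no support.

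Most EV-against-lysate differences were alike in cultures that had received vehicle. In control donors 315 of the same 521 miRNAs passed, and 241 passed in both contrasts, all in the same direction. Pearson's r between the log2 fold changes of the 2 contrasts was 0.915 and Spearman's rho 0.888 over 521 miRNAs; the contrasts share no library but share the batches. Only 14 miRNAs (2.69%) passed edgeR's test that the EV-against-lysate difference itself differs between BDNF and control donors, 8 with a higher and 6 with a lower value after BDNF, while 81 had an unadjusted p under 0.05. These calls were not stable. With 1 of the 24 libraries left out the count ran from 0, without control EV 1, to 18, and none of the 14 passed in all 24 cases. It fell by more than 1.5 times also without BDNF EV 8 or 9 (5 and 7), control EV 3 (8), BDNF lysate 3, 7, 8 or 9 (7, 6, 5 and 4) or control lysate 1, 2, 7 or 8 (5, 5, 4 and 5). With the replicate number as a block in place of batch 0 passed, after thinning 2, and with DESeq2 33. A block for each number within each fraction, chosen after seeing the data, called 63 of 521 (12.1%), 32 higher and 31 lower, among them all 14. Same-numbered BDNF and control libraries of 1 fraction deviated together (correlation 0.197 to 0.553 in EV and 0.43 to 0.685 in lysates), but with batch means removed the correlations were -0.106 to 0.066 and -0.01 to 0.411.

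miR-132-3p and miR-132-5p were among the 6 that were lower. Such a difference can lie in either fraction. miR-132-3p stood at 253 to 502 CPM in control EV and at 431 to 556 CPM in BDNF EV, which overlap. Its lysates stood at 351 to 442 CPM in control donors and at 682 to 1383 CPM after BDNF, with no overlap. The EV-against-lysate log2 fold change of miR-132-3p was -0.99 after BDNF and 0.00 in control donors, a difference of -0.99 ± 0.25 (SE, adjusted p = 0.0381 by edgeR). The adjusted p was 0.0631 with the block in place of batch, 0.00813 with the block within fractions, and up to 0.0684 with 1 library left out, where the call was lost in 9 of 24 cases. That of miR-132-5p was -1.76 after BDNF and -1.02 in control donors, a difference of -0.74 ± 0.20 (SE, adjusted p = 0.0384 by edgeR). Its adjusted p was 0.0873, 0.00813 and up to 0.0806 in the same settings, and the call was lost in 12 of 24 cases. miR-129-2-3p, miR-31-5p, miR-15b-5p and miR-329-3p were the other 4, with differences of -0.81, -1.19, -0.86 and -0.73. The EV-against-lysate log2 fold change of let-7i-5p was -0.39 after BDNF and -1.08 in control donors. The difference was 0.69 ± 0.15 (SE, edgeR adjusted p = 0.0204, and 0.0636 without control EV 1). Its EV stood at 21840 to 31728 CPM after BDNF and at 18105 to 25658 CPM in control donors, which overlap. Its lysates stood at 31128 to 36195 CPM after BDNF and at 38368 to 57564 CPM in control donors, with no overlap. miR-3081-3p (0.99), miR-1843a-5p (0.78), miR-1843b-5p (0.77), miR-30e-3p (0.64) and miR-370-3p (0.56) had positive differences too. miR-1843a-5p and miR-1843b-5p are near copies whose reads may have been shared. miR-1949 (0 to 8.44 CPM in EV and 0 to 0.964 CPM in lysates after BDNF) and miR-451a (5.12 to 34.8 and 0.138 to 0.463 CPM) completed the 8, and their lysates held too few counts for the size of the difference to be given. Of the 58 miRNAs that passed after BDNF and not in control donors, 3 passed the test of the difference.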

How the data were processed

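Per the labels' protocols, 150 ng of RNA entered each NEBNext small RNA library, read on a HiSeq2000. The authors deposited raw counts per mature miRNA. Of tools, the submitters' processing notes name CASAVA 1.8 and 1.8.2, cutadapt 1.8.1 and DESeq2, with the build mm10. Aligner, counter and annotation: not given in the sources used here. Shared counts of near-identical miRNAs, and ligation preferences of the kit, could change single values.

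From the 1915 rows, 14 duplicates in 12 sets of rows with identical counts (total of 100 or more) were dropped. R 4.3.3 and edgeR 4.0.16 (with limma 3.58.1) were used: TMM, filterByExpr with a minimum count of 10, robust quasi-likelihood fits of 4 groups plus batch over 24 libraries, Benjamini-Hochberg adjustment over the 521 miRNAs tested and diffSpliceDGE for arms. The 1380 rows not tested held 0.0244% of EV and 0.0188% of lysate counts. CPM are TMM-scaled, SE come from the quasi-likelihood F statistic, and fold intervals are 95% ones. The steps were tested on simulated data. Depth was 377730 to 10275409 counts per library, so miRNAs of a few CPM rest on few counts in EV.

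Named miRNAs were the 12 highest and 12 lowest calls at a mean of 20 CPM or more with 1 sign in both batches, the 10 most abundant in each group, the 2 most changed called members of each list, 6 arm examples, the 5 largest differences from control donors in each direction and 6 fixed ones (miR-132, miR-212, miR-218-5p and miR-690). The miRNAs, lists and tests were chosen with earlier results of these data known. Replicate numbers did not pair EV with lysates (correlation of deviations -0.09 to 0.176), whereas those of BDNF and control libraries of 1 fraction correlated above 0.1 in every pair, largely through batch, as given in the report. DESeq2 1.42.0, other scalings, filters, batches, thinning and leaving out each library were tried as alternatives. RNA libraries of hippocampal neurons were not used here.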

Additional observations from a re-analysis of the deposited data

Results flagged for a closer look

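In 9 of 144 groups of 6 libraries checked, 1 library stood apart from the other 5, where chance gives about 1 in 20; 7 of the 9 were EV groups. EV 8 was the highest for miR-10b-5p (45.5 CPM), miR-671-3p (42.8 CPM) and miR-708-3p (1009 CPM) and the lowest for miR-212-3p (2.68 CPM). EV 9 was the highest for let-7k (9.18 CPM), miR-150-5p (15.3 CPM) and miR-30d-5p (14344 CPM). Lysate 9 was the highest for miR-103-3p (2863 CPM) and lysate 1 the lowest for miR-431-5p (48.8 CPM).

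The EV-against-lysate log2 fold change differed between BDNF and control donors, by the test of that difference, for 14 miRNAs. It was higher after BDNF by 0.99 for miR-3081-3p, 0.78 for miR-1843a-5p, 0.77 for miR-1843b-5p, 0.69 for let-7i-5p, 0.64 for miR-30e-3p and 0.56 for miR-370-3p. For miR-451a and miR-1949 the fitted differences were 2.53 and 2.44, but their BDNF lysates held 1 to 4 and 0 to 7 counts, so these sizes depend on the prior count. The difference was -1.19 for miR-31-5p, -0.99 for miR-132-3p, -0.86 for miR-15b-5p, -0.81 for miR-129-2-3p, -0.74 for miR-132-5p and -0.73 for miR-329-3p. None of the 14 passed in all 24 fits with 1 library left out.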

How the results depend on the processing

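The count of 299 miRNAs was 260 to 330 under the other tools, scalings, filters and batch settings, except 171 of 291 tested after thinning to 377116 counts, where fewer miRNAs could be tested, and 281 to 302 with 1 library left out. Relative to the main scaling, the median of all miRNAs moved by 0.164 with library totals, -0.151 without miR-9-5p and -0.334 with no filter on low counts. The 14 differences from control donors became 33 with DESeq2, 0 with a replicate block in place of batch, 2 after thinning and 63 with the replicate block within EV and within lysate, an alternative chosen after seeing the data, and 0 to 18 with 1 of the 24 libraries left out, likewise chosen later. The replicate block in place of batch gave 287 of 521 for EV against lysate, where numbers do not pair the libraries (each correlated best with its own number in 2 of 6). The 64 precursors with an arm difference became 18 after thinning, where only 291 miRNAs could be tested. How many precursors kept both arms there was not counted, so the 2 numbers are not shares of the same total. The difference in miRNAs detected was 11 to 21 with 1 replicate number left out, and passed without replicate 2 (21, exact permutation p = 0.0167). The share of the 10 most abundant differed by -7.79 to -7.03 with 1 left out and by 0.64 without miR-9-5p. Of all calls 15 had opposite signs in the batches, among them miR-148a-3p (-0.24 in x) and miR-107-3p (-0.18 in z). Of the miRNAs named by rule, signs turned for miR-9-3p (0.14), miR-1843b-5p (-0.22) and miR-690 (-0.016) in batch x alone and for miR-125b-5p (-0.042) in batch z alone; the cause was not tested. A sign change between 2 values that both failed the test was not counted. The depth of EV libraries 7, 8 and 9 limits miRNAs of a few CPM.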
